A study of Mus musculus with 6 samples.

Results

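The Ighv12 family of heavy-chain V genes was described in VDJ-seq libraries of splenic B cell DNA from C57BL/6 mice aged 12 weeks. Its members were the sequences whose first called V gene, with the allele removed, belongs to Ighv12. There were 2119 of 228609 sequences over 6 libraries, of which 1898 were called Ighv12-3, 207 Ighv12-1 and 14 Ighv12-2. VDJ-seq reads joined V, D and J genes from genomic DNA, so it counts rearranged alleles and not transcripts. An input series had 1 library each at 500 ng, 1 µg, 2.5 µg and 5 µg, and a further pair, Q5_vent and Q5_Q5, is named after DNA polymerases. All were made from spleen cells left after magnetic depletion of other cells with biotin antibodies. The sources used here do not name the antibodies, the DNA amount of the polymerase pair or the number of animals, and no fraction was sorted as B-1 cells.

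A library held between 8704 and 112320 sequences, and between 74 and 952 of Ighv12-3. Each group has 1 library. Intervals are Wilson 95% intervals unless another is named, and they cover counting error only. Comparisons within libraries were tested with a two-sided exact sign-flip permutation test over the 6 libraries, in which the smallest p is 0.03125, and p-values were adjusted by Benjamini-Hochberg over the 7 tests made. Nothing in the labels says that the libraries came from separate DNA, so these p-values measure the spread between libraries. All 6 libraries carry the name of 1 sequencing run.

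A B cell assembles its heavy-chain gene by joining a V, a D and a J gene, and the join itself encodes CDR3, the loop at the centre of the antigen site. Joins that keep the reading frame and hold no stop codon are productive, while out-of-frame joins make no protein and are carried along on the other allele. In the mouse, Ighv12-3 (VH12) is known from B-1 cells, self-renewing B cells that make natural antibody, whose receptors bind phosphatidylcholine, a membrane lipid exposed on aged red cells. The heavy chains known from those cells have a CDR3 of 10 residues with glycine at the place 4, a pattern called 10/G4, and VH12 chains with other CDR3s are known to support pre-B cell growth poorly. Ighv11-2 is the other V gene best known for phosphatidylcholine binding.

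The ends of the V segments show what each gene brings to CDR3. They are given from mismatch-free sequences aligned to the last V base that at least 5 such sequences reached, with the bases that lie inside CDR3 in capitals.
Ighv12-3: acagccatgtattactgtGCAGGAGACAGA
Ighv12-1: agtcatgtactactgtTCTAGGGAAAACCA
All 606 sequences read to this base of Ighv12-3 and all 82 of Ighv12-1 ended this way, which follows from taking mismatch-free sequences. Ighv12-3 thus opens a CDR3 with 12 of its own bases at most, coding alanine, glycine, aspartate and arginine. The deposited CDR3 begins right after the conserved cysteine, so the 10 residues of the 10/G4 count are 12 residues, or 36 bases, of the deposited CDR3, whose leading 2 residues (alanine and glycine) are left out of the count.

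The CDR3s below belong to the Ighv12-3 joins that recurred in the most libraries and are shown because the results turn on them. Capitals mark the codon at place 4 of the 10-residue count, which codes glycine in every join shown here.
Most repeated clone, with Ighj4: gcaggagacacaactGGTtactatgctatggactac
AGDRDGYWYFDV with Ighj1: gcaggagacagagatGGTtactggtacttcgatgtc
AGDRDGYWYFDV with Ighj1, other bases: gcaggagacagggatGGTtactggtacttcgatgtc
AGDSDGYWYFDV with Ighj1: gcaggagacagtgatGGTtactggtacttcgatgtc
AGDLDGYFSMDY with Ighj4: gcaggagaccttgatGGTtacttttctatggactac
AGDSWGYWYFDV with Ighj1: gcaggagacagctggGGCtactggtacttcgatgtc
AGDISGYWYFDV with Ighj1: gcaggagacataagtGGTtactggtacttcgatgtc
AGDPWGYWYFDV with Ighj1: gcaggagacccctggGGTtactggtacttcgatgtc
AGDRSGYDYFDY with Ighj2: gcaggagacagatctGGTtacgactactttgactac
These 9 joins all encode 12 residues and all begin with the alanine, glycine and aspartate of the V gene. The most repeated clone has threonine at places 2 and 3 and closes with YYAMDY. The remaining join of the 10 that led this order, with Ighj1, encodes 16 residues.

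Ighv12-3 was rearranged often and was rarely productive. The gene lies on chromosome 12 at 114366526 to 114366819 (GRCm38.p6, RefSeq gene 435321, annotated as a V segment). Over all libraries it made up 2.34% of out-of-frame sequences (1193 sequences), the fifth most of 168 V genes, after Ighv5-2 (6.54%), Ighv2-2 (3.55%), Ighv1-26 (2.78%) and Ighv1-11 (2.45%). Among productive sequences it made up 0.278% (465 sequences) and ranked 70 of 160. The remaining 240 sequences were in frame and not productive.

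The productive share of Ighv12-3 was 32.4% (24 of 74 sequences), 23.0% (35 of 152), 23.3% (108 of 463) and 24.9% (237 of 952) along the input series from the lowest to the highest amount, and 22.2% (35 of 158) and 26.3% (26 of 99) in Q5_vent and Q5_Q5. Over V genes outside the family it lay between 73.1% and 74.3%, so that the ranges did not overlap. The difference averaged -48.3 percentage points ± 3.87 (SD, n = 6 libraries), with all 6 libraries lower (exact sign-flip permutation test, p = 0.03125, adjusted p = 0.0365). A low productive share is not rare among V genes: 50 of 115 genes with at least 100 sequences (43.5%) were below the remaining genes in 6 of 6 libraries, while 53 (46.1%) were above them. Ighv12-3 was the 27th lowest. Ighv11-2, with 38.5% productive (interval 35.5 to 41.6), was the 30th lowest, and Ighv1-26, the most used V gene, had 85.4%.

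**Figure D1:**
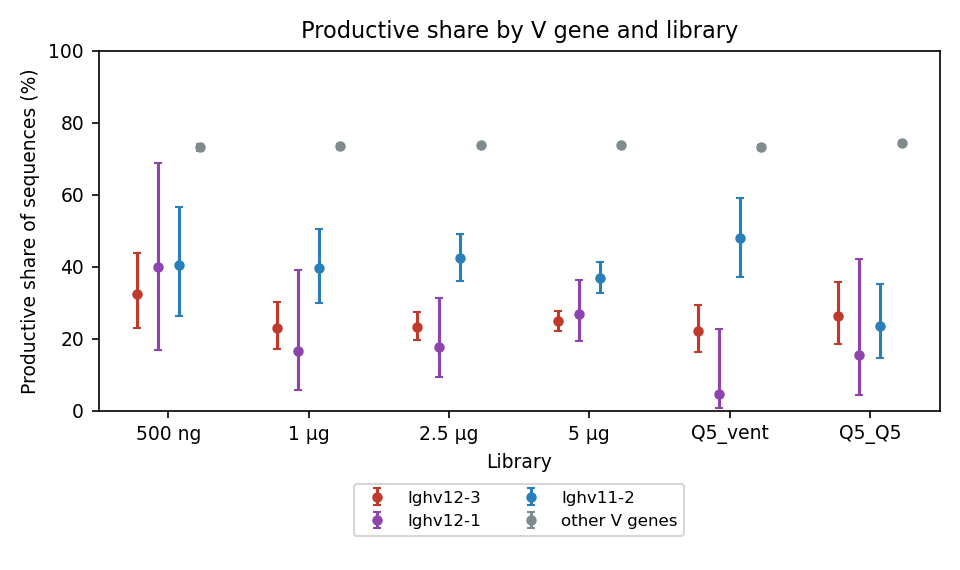
Share of sequences that were productive (vertical axis, percent) in each library (horizontal axis) for Ighv12-3, Ighv12-1, Ighv11-2 and all V genes outside the Ighv12 family. Points are single libraries and bars are Wilson 95% intervals; Ighv12-3 lies between 22.2% and 32.4% and the other V genes between 73.1% and 74.3%.

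Among the productive Ighv12-3 joins, nearly all had the same CDR3 length. Of 465, 413 had a CDR3 of 12 deposited residues, 88.8% (interval 85.6 to 91.4). In the input series the share was 95.8% (23 of 24), 88.6% (31 of 35), 91.7% (99 of 108) and 86.1% (204 of 237) in rising order of DNA, and in Q5_vent and Q5_Q5 it was 94.3% (33 of 35) and 88.5% (23 of 26). In productive joins of V genes outside the family 12 residues was also the most frequent length, but at 15.8% to 17.0% of each library. The difference averaged 74.3 points ± 3.91 (SD, n = 6 libraries; higher in 6 of 6; exact sign-flip permutation test, adjusted p = 0.0365). Among 96 V genes with at least 100 productive sequences, 8 (8.33%) were above the remaining genes in 6 of 6 libraries and 7 (7.29%) below them. Ighv12-3 was the highest, followed by Ighv5-2 at 29.0% and Ighv11-2 at 25.2%. A leading length was not particular to Ighv12-3. Productive Ighv11-2 joins had 33 bases in 214 of 373 (57.4%), against 16.0% in V genes outside the Ighv12 family.

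The 52 productive joins of other lengths ran from 27 to 57 bases. The next most frequent lengths were 48 bases (15 sequences) and 33 bases (11 sequences), each 3.23% or less of productive joins. A CDR3 of 10 residues in the deposited count was found in 3 of 465 productive joins (0.645%), against 10.9% in other V genes, so the rule of 10 residues holds only in the count that leaves out the leading 2.

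Out-of-frame Ighv12-3 joins had no such peak. Their CDR3s averaged 41.7 bases (SD 7.70 over 1193 sequences) and ran from 25 to 67 bases, and no length held more than 8.13% of them. The 4 out-of-frame lengths nearest to 36 bases (34, 35, 37 and 38) held 294 sequences in all. The productive joins averaged 36.7 bases with an SD of 3.09, and the 240 in-frame joins that were not productive averaged 44.2 bases (SD 7.25), with 26 of them at 36 bases.

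**Figure D2:**
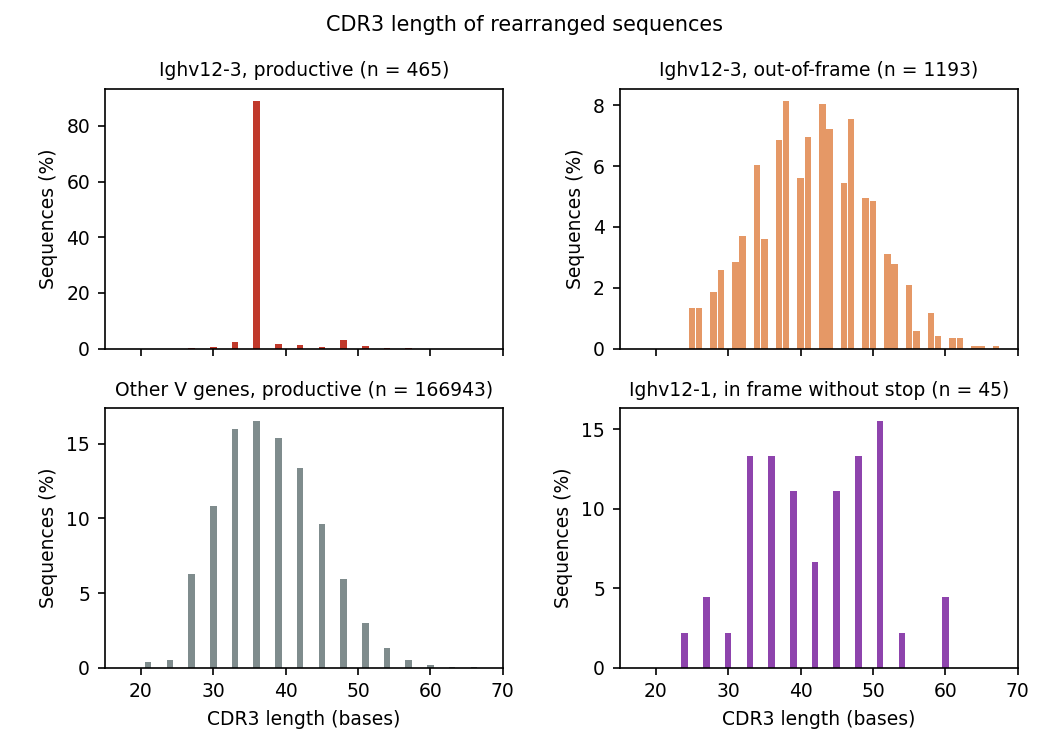
CDR3 length in bases (horizontal axis) against the percent of sequences (vertical axis, a separate scale in each panel) for productive and out-of-frame Ighv12-3 joins, productive joins of other V genes and in-frame, stop-free joins of Ighv12-1, all libraries pooled. The productive Ighv12-3 panel has 88.8% of its sequences at 36 bases, while the tallest out-of-frame bar is 8.13%.

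Within the 12-residue CDR3s, glycine stood at place 4 of the count in nearly all. It was found in 397 of 413 Ighv12-3 sequences (96.1%, interval 93.8 to 97.6) and in 4744 of 27599 of other V genes (17.2%). In rising order of DNA it was found in 23 of 23, 29 of 31, 95 of 99 and 195 of 204 Ighv12-3 sequences, and in Q5_vent and Q5_Q5 in 32 of 33 and 23 of 23. Of each library's 12-residue CDR3s of other V genes, 16.2% to 18.3% had it, with no overlap. The difference averaged 79.7 points ± 2.64 (SD, n = 6 libraries; higher in 6 of 6; exact sign-flip permutation test, adjusted p = 0.0365). The 10/G4 pattern as a whole was met by 85.4% of productive Ighv12-3 joins.

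Other places were less uniform. Aspartate, which the V gene codes, stood at place 1 in 406 of 413 (98.3%), and tyrosine at place 5 in 372 (90.1%). Place 2 held 19 different residues, led by threonine (115 sequences) and, without the most repeated clone, by arginine (108 of 310, 34.8%). Place 3 held 14 different residues, led by threonine (138 sequences) and, without that clone, by aspartate (123 of 310, 39.7%). In other V genes no residue at places 1 to 5 exceeded 24.8%. From place 6 on the residues come from the J gene for the most part. Of the 214 Ighj1 joins 190 ended in YWYFDV, and 103 of the 121 Ighj4 joins ended in YYAMDY, all of them 1 clone. These endings begin at place 5, so the tyrosine there is part of them. Whether the D or the J gene coded that tyrosine was not tested. Of all productive 12-residue CDR3s in the data, 403 began with AGD and had glycine at place 4, and 396 of these were Ighv12-3, whose V segment codes AGD. With only aspartate at place 1 and glycine at place 4 asked for, the set was 976 and Ighv12-3 made up 40.6% of it.

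**Figure D3:**
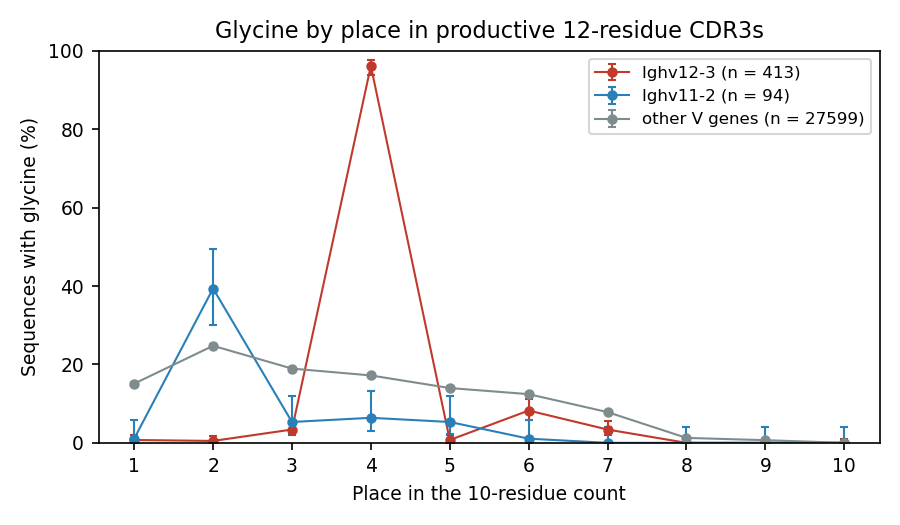
Percent of productive 12-residue CDR3s with glycine (vertical axis) at each place of the 10-residue count (horizontal axis), all libraries pooled, for Ighv12-3, Ighv11-2 and V genes outside the Ighv12 family; bars are Wilson 95% intervals. Ighv12-3 reaches 96.1% at place 4, where other V genes have 17.2% and Ighv11-2 has 6.38% (6 of 94 sequences).

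The glycine at place 4 was coded in several ways, most often by the D gene. The codon was GGT in 315 of 397 sequences, GGC in 37, GGG in 36 and GGA in 9. All 3 of its bases lay in the aligned D segment in 197 sequences (49.6%) and 2 of them in 149 (37.5%). Counted per clone, meaning sequences alike in V gene, in J gene and in the bases of CDR3, all 3 bases lay in D in 84 of 141 (59.6%). In 7 of the 141 clones the codon lay outside D, and 12 clones had no D call.

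Productive Ighv12-3 joins used Ighj1 far more than out-of-frame joins of the same gene. Ighj1, the J gene nearest to the D genes, can supply the closing residues WYFDV. Its share of productive joins was 75.0% (18 of 24), 42.9% (15 of 35), 52.8% (57 of 108) and 48.1% (114 of 237) in rising order of DNA, and 42.9% (15 of 35) and 50.0% (13 of 26) in Q5_vent and Q5_Q5. Among out-of-frame joins it lay between 14.6% and 18%, below every productive value. The difference averaged 35.0 points ± 13.0 (SD, n = 6 libraries; higher in 6 of 6; exact sign-flip permutation test, adjusted p = 0.0365), and 500 ng was the highest. Among 101 V genes, 15 (14.9%) had a difference above that of the remaining genes in 6 of 6 libraries and 7 (6.93%) one below it, and Ighv12-3 was the third highest, with 32.4 points pooled, after Ighv11-2 with 67.5 and Ighv1-62-3 with 35.7.

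Ighj2 and Ighj3 were correspondingly scarce in productive joins. Ighj2 made up 9.89% of productive (46 sequences) and 32.9% of out-of-frame joins (393), and Ighj3 11% (51) and 27.5% (328). Sequences whose primer tag is marked unclear made up 2.58% of productive and 18.4% of out-of-frame Ighv12-3 joins. Of all Ighv12-3 sequences with such a tag, joins with a stop included, 65.8% were called Ighj2. Without unclear tags the Ighj1 difference averaged 33.2 points. Ighj4 made up 29.2% of productive (136) and 22.0% of out-of-frame joins (263). Its difference averaged 5.54 points ± 8.78 (SD, n = 6 libraries), higher in 5 of 6 libraries (exact sign-flip permutation test, adjusted p = 0.188). The sign of this value rests on 1 clone: 103 of the 136 productive Ighj4 joins were the most repeated clone, and without it the difference averaged -14.0 points (adjusted p = 0.03125, exact sign-flip permutation test).

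**Figure D4:**
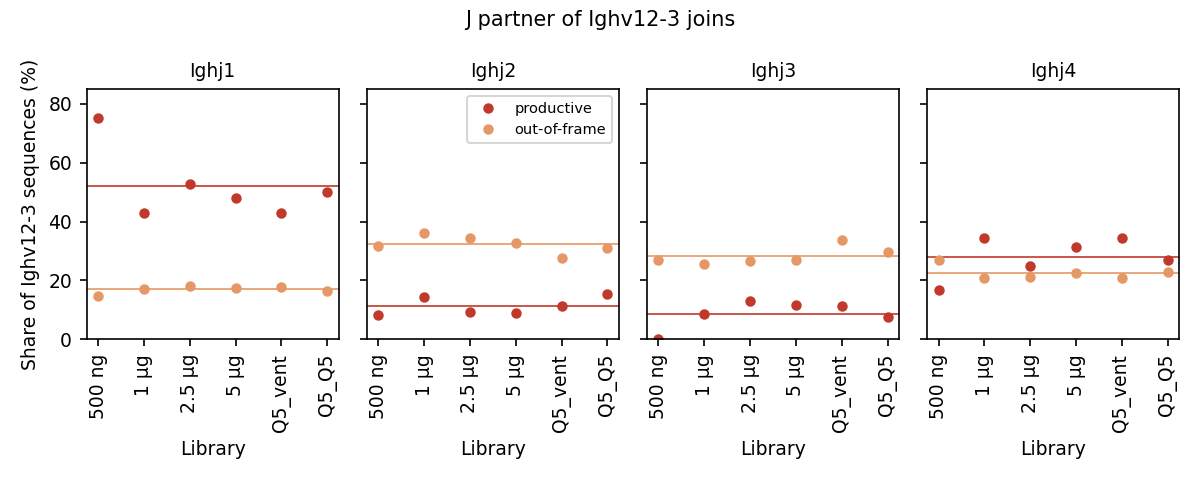
Share of Ighv12-3 sequences joined to each J gene (vertical axis, percent) in each library (horizontal axis), for productive and out-of-frame joins; points are single libraries and lines are the means over the 6 libraries. Productive Ighj1 shares lie between 42.9% and 75.0% and out-of-frame ones between 14.6% and 18%.

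D genes differed between the classes as well. DQ52 (Ighd4-1), the D gene nearest to the J genes, was called in 172 of 465 productive joins (37.0%, interval 32.7 to 41.5) and in 56 of 1193 out-of-frame joins (4.69%, interval 3.63 to 6.05). Of the 172, 103 were the most repeated clone, and without it DQ52 made up 69 of 362 (19.1%), a difference from out-of-frame joins of 14.4 points (Newcombe interval 10.4 to 18.9). Over libraries the DQ52 share without that clone was 12.0% to 21.3%, and out-of-frame it was 3.28% to 7.92%. Ighd2-3, a DSP2 gene whose sequence can code DGY, made up 28.6% of productive (133) and 9.64% of out-of-frame joins (115), with library ranges of 20% to 41.7% and 5.71% to 13.1%. Ighd1-1, the main DFL16 gene, made up 12.9% of productive (60) and 40.7% of out-of-frame joins (485). In productive joins of V genes outside the family these 3 D genes made up 6.85%, 8.55% and 38.5%. The DSP2 family as a whole made up 39.6% of productive Ighv12-3 joins, 50.8% without the most repeated clone, and 42.9% of out-of-frame joins. Its genes Ighd2-4, Ighd2-5 and Ighd2-1, taken as the first gene named in a call, were scarcer in productive joins. They were at 1.51%, 1.94% and 2.58%, against 12.2%, 7.38% and 7.21% out-of-frame. All of those calls named more than 1 D gene, so the shares are not of resolved genes. Of the Ighd1-1 calls, 37 of 60 productive and 451 of 485 out-of-frame ones named a single D gene. In productive 12-residue Ighv12-3 joins the aligned D segment was short, at 7.39 bases on average (SD 2.04), against 12.5 bases (SD 4.51) in all out-of-frame joins and 9.95 bases (SD 3.44) in those of 34 to 38 bases, and a D call on so few bases is less certain.

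Few bases were added in the productive joins. Bases that lie between aligned segments, V to D and D to J, are counted here as N length, in sequences with a D call, and include untemplated N bases, which terminal transferase adds after birth for the most part, and palindromic P bases. The mean N length of productive Ighv12-3 joins was 1.61, 2.79, 2.01 and 2.61 bases in rising order of DNA, and 2.18 and 2.76 bases in Q5_vent and Q5_Q5. Out-of-frame it lay between 6.69 and 7.53 bases, with no overlap. The difference averaged -4.73 bases ± 0.594 (SD, n = 6 libraries; lower in 6 of 6; exact sign-flip permutation test, adjusted p = 0.0365).

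Joins with no such base at all made up 36.9% of productive (164 of 445) and 2.3% of out-of-frame Ighv12-3 joins (26 of 1131), a difference of 34.6 points (Newcombe interval 30.1 to 39.2). Of the 164, 103 were the most repeated clone, and without it the productive share was 17.8% (61 of 342, interval 14.1 to 22.2). In other V genes the share was 1.34% of productive joins. The short N regions belonged to the 12-residue joins, with a mean of 1.80 bases (SD 2.13), whereas the productive joins of other lengths averaged 7.46 bases (SD 4.10, 48 sequences). Out-of-frame joins of like length, 34 to 38 bases, averaged 5.53 bases (SD 3.01). Productive Ighv11-2 joins were also short in N length, with a mean of 2.27 bases.

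**Figure D5:**
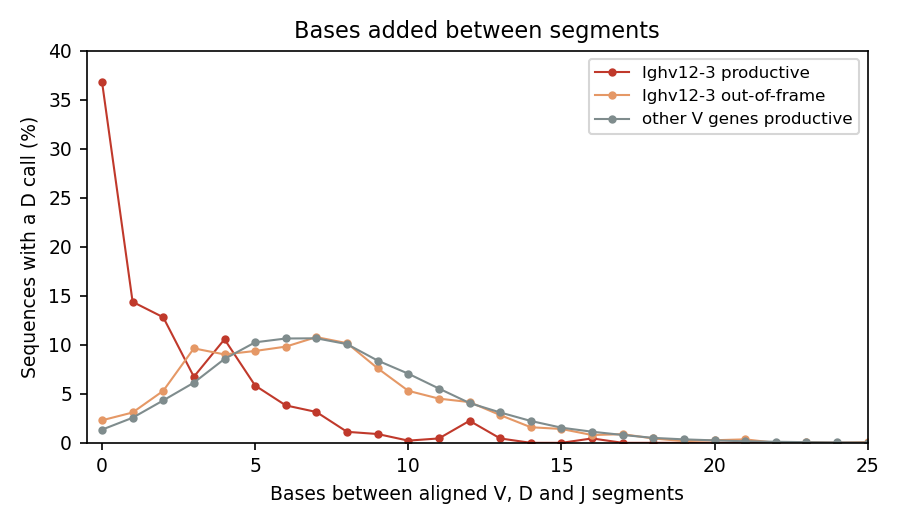
Number of bases between aligned segments, V to D plus D to J (horizontal axis) against the percent of sequences with a D call (vertical axis), all libraries pooled, for productive and out-of-frame Ighv12-3 joins and productive joins of other V genes. Productive Ighv12-3 joins peak at 0 bases with 36.9%, where the other classes have 2.3% and 1.34%.

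Productive Ighv12-3 clones recurred. The 465 productive sequences fell into 201 clones, of which 57 were seen in more than 1 sequence and 46 in more than 1 library. A clone was counted as repeated over all 6 libraries together, so the library values that follow depend on one another. The share of productive sequences in repeated clones was 83.3%, 60%, 67.6% and 70% in rising order of DNA, and 71.4% and 61.5% in Q5_vent and Q5_Q5. For other V genes it lay between 2.80% and 4.05%, and the difference averaged 65.4 points ± 8.14 (SD, n = 6 libraries; higher in 6 of 6; exact sign-flip permutation test, adjusted p = 0.0365). Counting only clones seen again within the same library, the difference averaged 38 points and ran from 18.5 to 61.4 over the libraries. Of 96 V genes, 8 (8.33%) were above the remaining genes in 6 of 6 libraries and 22 (22.9%) below them, and Ighv12-3 was the second highest with 69.0%, next to Ighv11-2 with 70.8%. Out-of-frame Ighv12-3 joins recurred little: 1193 sequences made 1156 clones, 16 of them repeated, with 4.44% of the sequences.

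The most repeated clone, with Ighj4 and DQ52, had no base between its aligned segments. It was found 2, 10, 22 and 54 times in rising order of DNA, and 10 and 5 times in Q5_vent and Q5_Q5, which was 8.33% to 28.6% of productive Ighv12-3 sequences of a library. With 1 further copy flagged not productive, its 104 sequences carried 104 different molecular identifiers, the random bases that mark single molecules. Over all 1898 Ighv12-3 sequences, 0 pairs of clone and identifier were found in more than 1 library. The copies were thus told apart by their identifiers, though within a library the deduplication of the deposited sequences may already set this. Whether they came from separate cells of a clone or from independent joins of the same bases was not tested.

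The next clone, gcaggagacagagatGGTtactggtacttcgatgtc, was found 15 times and in all 6 libraries, 1 to 6 times in each, also with no base between segments. Several 12-residue CDR3s were encoded by more than 1 base sequence: 20 of 129 by residues (15.5%), against 0.371% of 26933 combinations of V gene and 12-residue CDR3 in other V genes. AGDRTGYWYFDV had 6 base versions in 18 sequences of 5 libraries, all with DQ52, and 2 of them are shown with the codon of place 4 in capitals.
AGDRTGYWYFDV, 6 sequences: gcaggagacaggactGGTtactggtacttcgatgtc
AGDRTGYWYFDV, 5 sequences: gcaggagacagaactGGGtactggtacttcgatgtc
These versions differ in bases and code the same residues. The shares are given as a description, since other V genes hold fewer sequences per CDR3.

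The out-of-frame clone with the most copies was seen 19 times in 4 libraries, with a CDR3 of 38 bases, Ighj1 and Ighd1-1. It stood alone in its class, since the next held 4 sequences.
Out-of-frame, 19 sequences: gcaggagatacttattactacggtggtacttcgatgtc

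Ighv12-1 and Ighv12-2 are annotated as V segment pseudogenes (chromosome 12, 114107259 to 114107563 and 114127533 to 114127984, GRCm38.p6). Ighv12-1 was found 10, 18, 45 and 100 times in rising order of DNA, and 21 and 13 times in Q5_vent and Q5_Q5, or 0.0803% to 0.115% of a library. The files flag 45 of its 207 sequences as productive (21.7%, interval 16.7 to 27.8), 2.76 points below the share of Ighv12-3 (Newcombe interval of Ighv12-3 minus Ighv12-1, -3.63 to 8.21). This flag says only that the sequenced part is in frame and stop-free, and the median V alignment of these 207 sequences was 163 bases.

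The flagged Ighv12-1 joins did not share the CDR3 of Ighv12-3. Their CDR3s ran from 24 to 60 bases, with 6 of 45 at 12 residues (13.3%), against 88.8% in Ighv12-3, a difference of 75.5 points (Newcombe interval 62.3 to 83.0). Their mean N length was 6.41 bases (SD 3.65) and Ighj1 made up 12.6% of all Ighv12-1 joins. Among V genes ranked by the Ighj1 difference between productive and out-of-frame joins, Ighv12-1 was on neither side in all libraries. Ighv12-2 was found 3 times at 2.5 µg, 9 at 5 µg and 1 time in each library of the polymerase pair, with 2 of the 14 flagged productive. At 500 ng and 1 µg it was found 0 times, which allows a share of up to 0.0345% and 0.0176% when 3 counts are taken as the limit (upper Wilson bounds 0.0441% and 0.0225%).

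The input and polymerase comparisons set the recovery of Ighv12-3 side by side. In rising order of DNA its share of out-of-frame sequences was 2.08%, 2.75%, 2.37% and 2.36%, highest at 1 µg, and its share of productive sequences 0.379%, 0.281%, 0.263% and 0.288%, so neither was in the order of the amounts. Its share of out-of-frame sequences was 2.36% at 5 µg and 2.08% at 500 ng (ratio 1.14, Katz interval 0.831 to 1.55), and of productive sequences 0.288% and 0.379% (ratio 0.760, interval 0.50 to 1.16). Q5_Q5 had 1.85% of out-of-frame sequences and Q5_vent 2.29% (ratio 0.809, interval 0.591 to 1.11), and of productive sequences 0.234% and 0.247% (ratio 0.946, interval 0.570 to 1.57). All 4 intervals include 1, and at these counts changes of this size were not detectable.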

How the data were processed

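The authors deposited 1 table per library with a row per deduplicated sequence. Per the submitters' processing notes, Trim Galore 0.4.4 and Bowtie2 2.3.2 were used with the mm10 build; no source used here gives the version of the caller of V, D and J genes. Per the file headers, the tables hold gene calls, frame and productive flags, CDR3 bases and residues, lengths in bases, and V identity, a fraction between 0 and 1.

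From these, sequences were assigned to the first V gene called, and 0 of the 2119 Ighv12 calls named a second V gene. The D gene was likewise the first called, and a D call could name several genes. Molecular identifiers (12 bases) and reads per sequence came from the sequence names. The D families were read as Ighd1 for DFL16, Ighd2 for DSP2, Ighd3 for DST4 and Ighd4 for DQ52. The sign-flip test was tried on short made-up series with known answers. The rule of 6 of 6 libraries across V genes (at least 100 sequences and 1 or more in each library) was tested on simulated data for the productive share only. Named were every Ighv12 gene, Ighv11-2, Ighv1-26, J genes and D families, up to 10 productive and 5 out-of-frame Ighv12-3 clones by the number of libraries and then sequences, and the most common residue at each place; Ighd genes, CDR3s with several base versions and other V genes at the ends of a ranking were named after their values were seen. Members, lists and tests were chosen with earlier results of these data known. The polymerase pair has 1 library a side and allows no test, and no trend over the 4 input libraries was tested. Alternatives were 1 count per clone and library, calls naming a single V gene, no unclear primer tags, at least 5 reads, each library left out, and other definitions of length, N length and repeat. Without the most repeated clone and with out-of-frame CDR3s of 34 to 38 bases were chosen after seeing the data. Depth was 8704 to 112320 sequences. Tables were handled with pandas 2.3.3 under Python 3.11.15, tests used NumPy 2.4.6 with SciPy 1.17.1, and figures matplotlib 3.10.9.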

Additional observations from a re-analysis of the deposited data

How the results depend on the processing

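With 1 library per group no group difference has a replicate check. No paired analysis was possible because each group has 1 library and the labels give no replicate numbers to pair groups by; the tests within libraries are paired by library. The productive share, the Ighj1 difference, the 12-residue share, glycine at place 4, the N length and the repeated-clone share kept their direction and their side of the threshold under the alternatives run that used all 6 libraries, with 1 exception. With 10 residues of the deposited CDR3 in place of 12, the share was lower in Ighv12-3 by -10.6 points, which follows from the other residue count. The Ighj4 difference of 5.54 points was -10.2 with 1 count per clone and library, -14.0 without the most repeated clone and 14.6 for 12-residue joins against out-of-frame CDR3s of 34 to 38 bases. With at least 500 productive sequences, 9 of 67 V genes stood apart in 12-residue share, in place of 15 of 96. In repeated clones 19 of 67 did, in place of 30 of 96. Fewer genes were tested at that minimum, and Ighv12-3, with 465 productive sequences, is itself below it and in neither count. Leaving out 1 library, where p cannot go below 0.0625, gave -49.8 to -47.7 points for the productive share, 29.9 to 37.0 for Ighj1, 3.95 to 8.69 for Ighj4, 73.2 to 75.3 for 12 residues, 78.9 to 80.4 for glycine, -4.80 to -4.49 bases for N length and 57.8 to 67.0 points for repeated clones. Genes that stood apart then numbered 95 to 106 for productive share, where 106 to 115 were tested. They numbered 12 to 19 for 12-residue share and 21 to 37 for repeated clones, where 85 to 95 were tested. For Ighj1 they numbered 24 to 31, where 98 to 104 were tested. The repeated-clone difference was 38 points when only repeats within the same library counted and 56.2 without the most repeated clone. Depth limits the 500 ng library most, with 24 productive Ighv12-3 sequences.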

Other observations

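Joins with a stop were a large part of the in-frame Ighv12-3 joins, although most in-frame joins (465 of 705) were productive. Set beside out-of-frame joins, joins with a stop were as frequent as in V genes outside the family: 240 to 1193 in Ighv12-3 and 9981 to 49566 in those. Of the 705 in-frame Ighv12-3 joins, 240 had a stop (34%), against 5.64% of 176924 in-frame joins of V genes outside the family. The split followed CDR3 length: of 439 in-frame joins of 36 bases 413 were productive (94.1%), and of 266 in-frame joins of other lengths 52 were (19.5%). In these 240 joins Ighj1 made up 15% (36 sequences), DQ52 1.67% (4) and DSP2 57.9% (139), and their N length averaged 8.10 bases. Among out-of-frame Ighv12-3 joins 452 of 1193 (37.9%) also held a stop.

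Mismatches to the germline V gene, which somatic mutation and sequencing errors both leave, were found in 18 of 465 productive Ighv12-3 sequences (3.87%, interval 2.46 to 6.04) and in 87 of 1193 out-of-frame ones (7.29%, interval 5.95 to 8.91). In V genes outside the family the shares were 6.32% and 11.5%, and in productive Ighv11-2 sequences 10.7% (interval 7.97 to 14.3). Of the 104 copies of the most repeated clone, 2 had a mismatch.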
